A study of Mus musculus with 8 samples.

Results

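The genes described here are 35 genes of glycolysis, glucose and lactate transport and glycogen metabolism. They were chosen by name from textbook pathways, with earlier results of these data known. They were read, 1 probe a gene, from 22909 genes named on the array. All 35 had a named probe, and the brightest probe of each was well above background on all 8 arrays, so none was lost to a filter on dim genes. The tissue was mouse heart ventricle, from homozygous Tnnt2 ΔK210 knock-in mice (KI) and wild-type mice (WT), each at 1 week of age and at birth (0 days). Tnnt2 encodes cardiac troponin T, and ΔK210 removes 1 lysine from it; the labels name the mice a model of dilated cardiomyopathy of the newborn. The 4 groups had 2 single-colour Agilent arrays each, and the ventricles of 3 animals were pooled for a sample. No label tells if both arrays of a group share 1 pool, so p-values measure a spread between arrays that may be technical only.

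The 4 arrays at 1 week are called A to D because the deposited files name 3 of them in 2 ways. By the columns of the value table, B and C were KI and A and D were WT. By the owners of the scanner files, C and D were KI and A and B were WT. The value-table naming is used here, with values under the scanner-file naming beside the comparisons of KI and WT. The mean of KI and WT at 1 week holds the same 4 arrays under either naming, so the comparison of the ages has the same estimate in both. The 1-week arrays filled row 2 of the slide and the birth arrays row 1, so slide row and age cannot be told apart. Among birth arrays, KI filled columns 3 and 4 and WT columns 1 and 2, and genotype and column again cannot be told apart.

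Glycolysis splits glucose into pyruvate, which the cell either oxidises in mitochondria or turns into lactate. Most steps are run by small families of isozymes, with a ubiquitous form, forms typical of brain or liver, and a form typical of striated muscle. The fetal heart draws much of its energy from glucose and lactate and stores glycogen, and after birth the heart shifts towards oxidising fatty acids. Glucose enters through facilitative carriers of the Slc2a family, and lactate crosses the membrane through carriers of the Slc16a family.

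A level is given as the log2 processed signal of a probe minus the 75th percentile of its array, and a difference as a difference of such levels in log2 units. The signal at that percentile ranged from 343 on array D to 523 on array B, 60.7% to 64.7% of probes were well above background, and no feature was saturated. The quality result in the scanner files was in range for every array except KI birth replicate 1, which was marked for evaluation. The first principal component (60.8% of variance) separated the ages, and the second (11.7%) separated array D from the rest. D was the lowest of the 4 1-week arrays for 24 of the 35 genes (68.6%), against 39.1% of all genes tested. Ventricular cardiomyocyte markers were well above background on every array (8 of 8). Of the 9 markers of fast skeletal muscle, 5 were so too, while Myh4, Myh2 and Actn3 never were. The summed signal of these 9 was 3.86 to 6.55 at 1 week, against 6.19 to 7.72 at birth. In summed linear signal, in multiples of the 75th percentile, the 6 atrial markers were 67.3 on A and 408 to 482 on B to D at 1 week, against 437 to 584 at birth. Summed markers were 184 to 246 for fibroblasts, 150 to 212 for endothelium and 10.6 to 14.2 for macrophages at 1 week, against 87.9 to 107, 110 to 116 and 6.79 to 8.5 at birth. The part of these cell types in the age differences below was not tested.

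At 1 week the ventricle had less RNA of the brain-type aldolase Aldoc, the basal glucose carrier Slc2a1, the liver-type phosphorylase Pygl and the ubiquitous enolase Eno1 than at birth, and more of Gpd1, Slc2a4, Hk2, Pfkfb2 and Pfkfb4. Aldoa, Gapdh, Pkm and Pygm did not pass, nor did Pygb of brain, Eno2 of neurons and Pfkl of liver. Over the mean of KI and WT, 17 of the 35 genes (48.6%) passed the limma test at an adjusted p of 0.05, against 29.2% of all 15744 genes tested. Of these 17 genes 12 were lower at 1 week, where 14.5% of all genes were, and 5 were higher, where 14.8% of all genes were. The median difference was -0.25 for the 35 genes and -0.03 for all genes. The 1-week and birth arrays did not overlap for 22 of the 35 genes (62.9%, 15 lower and 7 higher), against 35.6% of all genes. Since the 35 genes were chosen with earlier results of these data known, these shares describe the list and do not test it. The largest falls were in Aldoc, Slc2a1, Pygl, Slc16a3 and Slc2a3, and the largest rise was in Gpd1. In whole tissue, fewer cells of a type and less RNA per cell cannot be told apart. With the scanner-file naming the estimates were the same and the spread within groups differed, so that 20 genes passed, against 30.0% of all genes, of which 14 were lower and 6 higher, each against 15.0% of all genes.

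**Figure D1:**
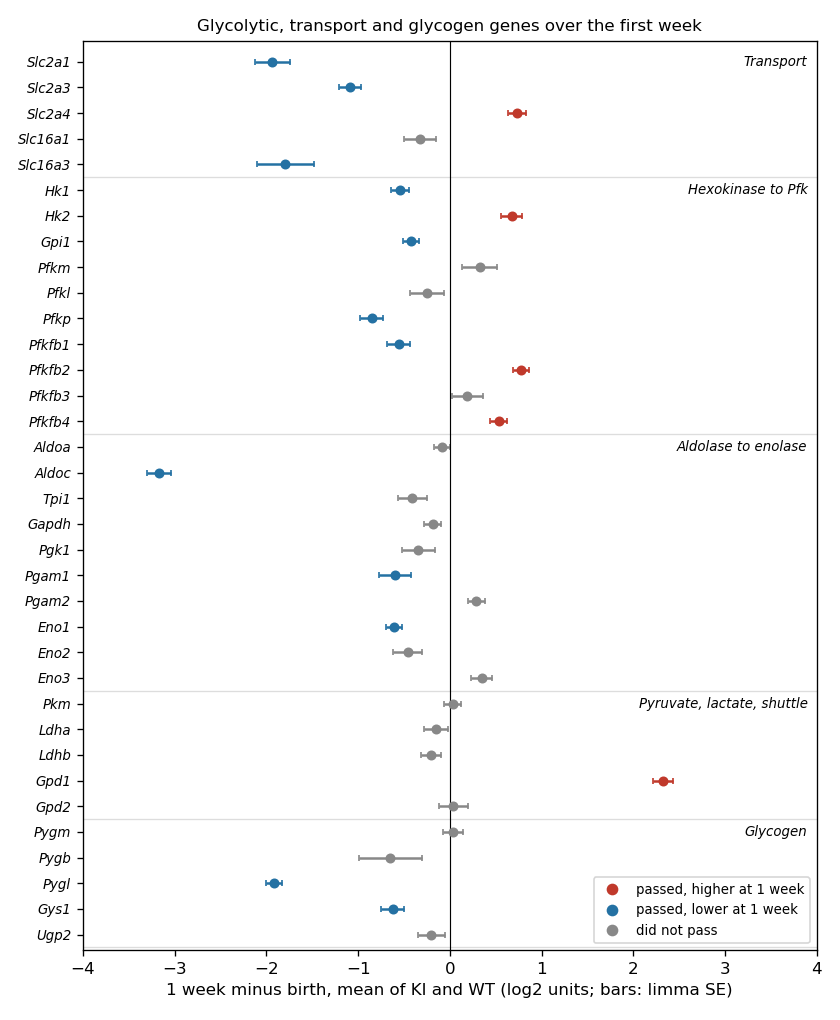
Difference between 1 week and birth for each of the 35 genes, as the mean of KI and WT in log2 units with its limma standard error, ordered by step of the pathway. Aldoc lies furthest to the left at -3.17 and Gpd1 furthest to the right at 2.33, while Aldoa, Pkm, Gpd2 and Pygm lie close to 0.

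Promoter windows are shown for 4 of the genes that fell most and for Hk2, which rose, because these genes carry the change of isozymes described next. Each run is the 250 bases before the annotated start of the gene, from RefSeq on GRCm38.p6, and the capitals mark the letters ACGTG or GCGTG on either strand. These letters are the core of the hypoxia response element, through which the hypoxia-inducible factors act on several glycolytic genes. The windows lie at chr11:78322823-78323072 on the plus strand, chr4:119108495-119108744 on the plus strand, chr11:120948817-120949066 on the plus strand, chr12:70227684-70227933 on the minus strand and chr6:82774455-82774704 on the minus strand. For Aldoc 1 of 2 windows is shown.
Aldoc: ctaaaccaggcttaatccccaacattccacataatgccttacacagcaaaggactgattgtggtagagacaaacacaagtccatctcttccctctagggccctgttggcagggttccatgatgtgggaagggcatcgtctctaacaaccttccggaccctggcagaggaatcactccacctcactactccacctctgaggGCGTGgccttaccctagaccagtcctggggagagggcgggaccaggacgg
Slc2a1: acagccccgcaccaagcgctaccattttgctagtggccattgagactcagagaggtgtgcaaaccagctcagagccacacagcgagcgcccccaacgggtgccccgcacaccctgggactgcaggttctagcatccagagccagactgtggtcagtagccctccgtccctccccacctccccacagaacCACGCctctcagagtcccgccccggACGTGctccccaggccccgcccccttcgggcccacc
Slc16a3: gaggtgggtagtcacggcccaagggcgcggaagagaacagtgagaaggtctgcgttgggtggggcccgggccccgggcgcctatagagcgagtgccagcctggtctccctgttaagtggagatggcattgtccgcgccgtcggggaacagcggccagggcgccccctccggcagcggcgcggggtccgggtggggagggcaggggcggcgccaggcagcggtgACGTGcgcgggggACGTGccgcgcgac
Pygl: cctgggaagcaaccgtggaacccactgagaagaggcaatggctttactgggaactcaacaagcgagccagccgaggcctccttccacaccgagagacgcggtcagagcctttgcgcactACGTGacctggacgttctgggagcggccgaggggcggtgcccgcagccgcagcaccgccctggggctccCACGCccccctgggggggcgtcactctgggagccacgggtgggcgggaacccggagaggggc
Hk2: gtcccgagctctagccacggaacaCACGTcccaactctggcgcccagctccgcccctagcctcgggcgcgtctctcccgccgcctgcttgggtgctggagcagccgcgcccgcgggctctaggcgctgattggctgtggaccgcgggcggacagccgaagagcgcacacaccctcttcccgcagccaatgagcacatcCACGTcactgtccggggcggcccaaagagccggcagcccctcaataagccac

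Of the 35 genes, 32 had a window in the table, with 51 windows in all; Slc2a3, Slc2a4 and Gpd1 had no entry. ACGTG or GCGTG was present in 37 of the 51 windows (72.5%), against 38.6% of all 32851 windows of the same length. The median GC content was 60% in these windows and 52.4% in all windows, and its part in the motif count was not tested. Among genes that were lower at 1 week, 12 of 18 windows held the letters, among those that were higher 5 of 5, and among those that did not pass 20 of 28. Windows of 1 gene can overlap. Counted by gene, these were 9 of 11, 3 of 3 and 15 of 18. For all 32 genes the count was 27 (84.4%), against 41.5% of all genes with a window. The 2 motifs were split unequally. ACGTG was in 4 of 18 windows of lower genes, 3 of 5 of higher ones and 14 of 28 of those that did not pass, against 16.6% of all windows. For GCGTG these were 11 of 18, 3 of 5 and 12 of 28, against 28.2%. The 6-base E-box CACGTG, which contains ACGTG, was in 9.80% of the windows and in 6.02% of all windows. Such matches describe letters in a window, not bound sites.

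Among the glucose carriers, the basal one fell and the insulin-responsive one rose. Slc2a1, which encodes GLUT1, the basal carrier of fetal tissue and newborn red cells, was 0.93 and 1.50 on the KI arrays and 0.92 and 0.59 on the WT arrays at 1 week, against 2.63 and 3.15 on the KI arrays and 2.78 and 3.13 on the WT arrays at birth. Every 1-week array lay below every birth array, and the fall was 3.83-fold (difference -1.94 ± 0.19 SE, adjusted p = 0.000666). Slc2a4, which encodes GLUT4, the carrier that insulin brings to the surface of muscle cells, was 5.17 and 5.29 on the KI arrays and 5.41 and 5.26 on the WT arrays at 1 week, against 4.42 and 4.47 on the KI arrays and 4.51 and 4.79 on the WT arrays at birth. All 4 1-week arrays were higher than all 4 birth arrays, by 1.66-fold (difference 0.73 ± 0.10 SE, adjusted p = 0.00259). Slc2a3, which encodes GLUT3, a high-affinity carrier of neurons and leukocytes, was -2.24 and -1.97 on the KI arrays and -1.87 and -2.07 on the WT arrays at 1 week, against -0.97 and -0.65 on the KI arrays and -1.12 and -1.06 on the WT arrays at birth. It fell 2.12-fold without overlap of the ages (difference -1.09 ± 0.12 SE, adjusted p = 0.00102). The summed signal of 9 erythroid markers was 563 to 845 at 1 week, against 579 to 646 at birth, and of the 8 tested 2 passed as higher and 0 as lower. Of the neutrophil markers 5 of the 5 measured passed as lower, where 14.5% of all genes were. Their summed signal was 2.89 to 4.99 at 1 week, against 11.4 to 23.7 at birth. Only 3 of the 5 were well above background on all 8 arrays. Retnlg was so on 6, and Ngp, brighter at birth, on 4, so the call of Ngp is not read as a result. The part of neutrophils in the falls of Slc2a3 and of Pygl was not tested.

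Of the lactate carriers, Slc16a3 fell and Slc16a1 did not pass. Slc16a3, which encodes MCT4, the carrier through which glycolytic cells release lactate, was 0.55 and 1.02 on the KI arrays and 0.61 and 0.28 on the WT arrays at 1 week, against 1.94 and 3.19 on the KI arrays and 1.86 and 2.62 on the WT arrays at birth. The birth arrays varied widely in both genotypes, yet all lay above the 1-week arrays, and the fall was 3.46-fold (difference -1.79 ± 0.31 SE, adjusted p = 0.00597). Slc16a1, which encodes MCT1, the carrier through which the heart takes up lactate, was 4.16 and 4.46 on the KI arrays and 3.997 and 3.50 on the WT arrays at 1 week, against 4.55 and 4.20 on the KI arrays and 4.57 and 4.11 on the WT arrays at birth. Its ages overlapped, and the difference of -0.33 ± 0.17 SE did not pass (adjusted p = 0.193).

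**Figure D2:**
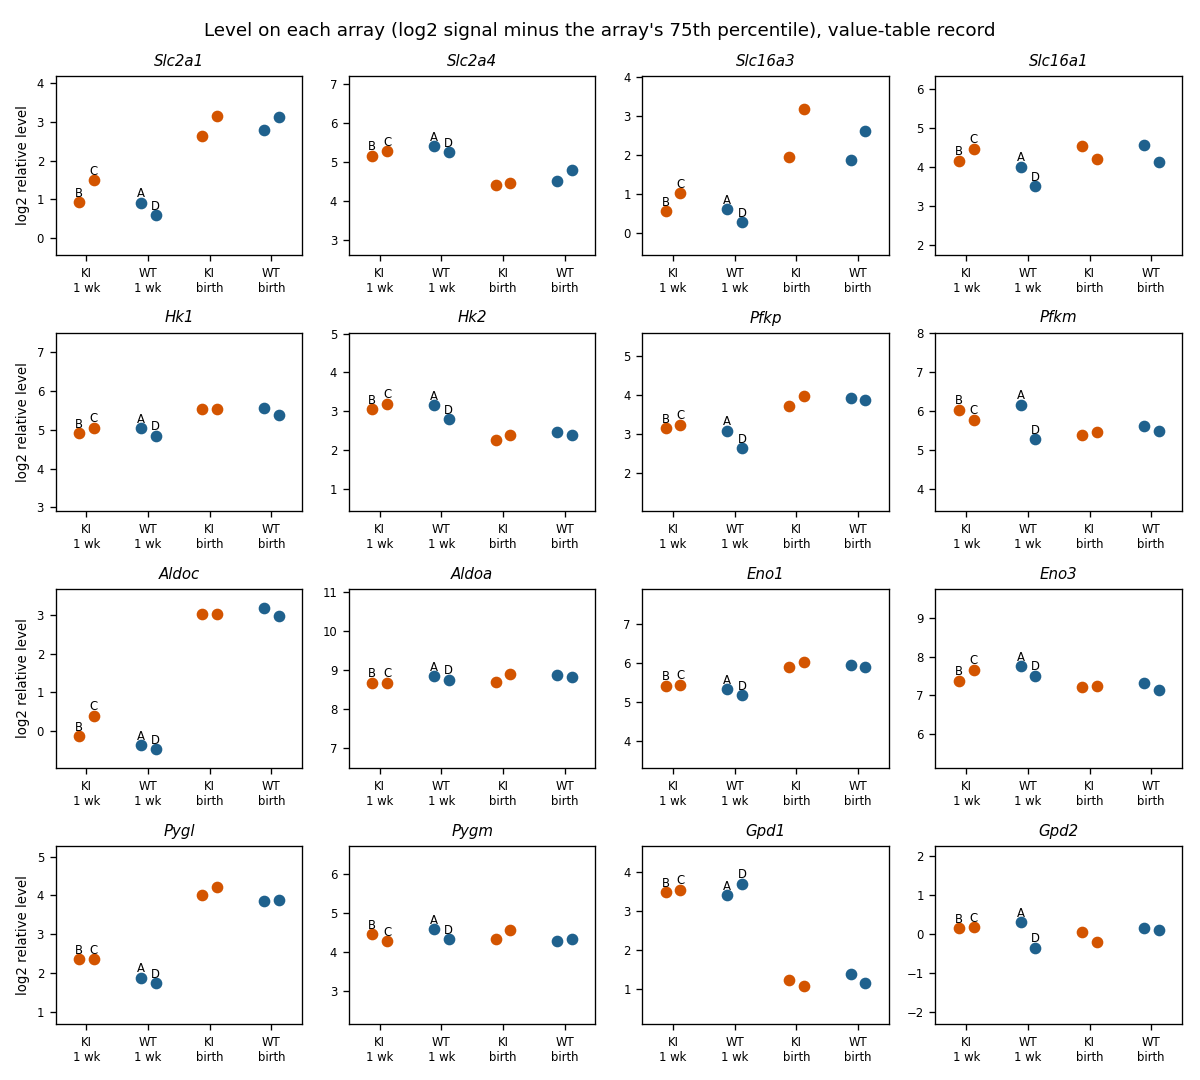
Level of 16 genes on each array, as log2 signal minus the 75th percentile of the array, with KI in orange and WT in blue by the value table and the 1-week arrays named A to D. All panels have the same height in log2 units, and the wide gap between ages in Aldoc (-3.17) can be set beside the near-level points of Aldoa (-0.08).

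At the first steps of glycolysis the hexokinases moved apart. Hk2, the hexokinase typical of insulin-responsive muscle, was 3.06 and 3.19 on the KI arrays and 3.16 and 2.79 on the WT arrays at 1 week, against 2.26 and 2.40 on the KI arrays and 2.47 and 2.39 on the WT arrays at birth. It rose 1.60-fold with no overlap (difference 0.67 ± 0.11 SE, adjusted p = 0.00529). Hk1, the ubiquitous hexokinase, was 4.90 and 5.05 on the KI arrays and 5.04 and 4.85 on the WT arrays at 1 week, against 5.53 and 5.54 on the KI arrays and 5.55 and 5.39 on the WT arrays at birth. It fell 1.46-fold, also with no overlap (difference -0.54 ± 0.10 SE, adjusted p = 0.00692), but with the mean of both Hk1 probes the difference was -0.09 and did not pass (adjusted p = 0.521), a value that takes in a second probe well above background on 0 of 8 arrays. Gpi1, glucose-6-phosphate isomerase, had a narrow range, 7.08 to 7.23 at 1 week, against 7.52 to 7.65 at birth. Its difference of -0.42 ± 0.09 SE passed (adjusted p = 0.0130), although not without WT birth replicate 1 (adjusted p = 0.0502).

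Phosphofructokinase commits sugar to glycolysis, and its 3 subunit genes changed unequally. Pfkp, the platelet-type subunit, was 3.15 and 3.24 on the KI arrays and 3.09 and 2.64 on the WT arrays at 1 week, against 3.72 and 3.995 on the KI arrays and 3.94 and 3.87 on the WT arrays at birth. It fell 1.81-fold (difference -0.85 ± 0.13 SE, adjusted p = 0.00371), and its ages did not overlap. Pfkm, the muscle subunit, was 6.04 and 5.78 on the KI arrays and 6.16 and 5.29 on the WT arrays at 1 week, against 5.39 and 5.47 on the KI arrays and 5.62 and 5.50 on the WT arrays at birth. On A, B and C it was above every birth array and on D below them. The difference of 0.33 ± 0.19 SE did not pass (adjusted p = 0.239). Without D, which leaves A as the only WT array at 1 week, the Pfkm difference was 0.54. Pfkl, the liver subunit, ranged from 1.39 to 2.01 at 1 week, against 1.71 to 2.26 at birth, and did not pass (difference -0.25 ± 0.18 SE, adjusted p = 0.335).

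The 4 Pfkfb genes encode bifunctional enzymes that make and remove fructose 2,6-bisphosphate, the main activator of phosphofructokinase, and they too changed in both directions. Pfkfb2, the isozyme typical of heart, was 0.59 and 0.48 on the KI arrays and 1.02 and 0.84 on the WT arrays at 1 week, against -0.21 and -0.26 on the KI arrays and 0.18 and 0.11 on the WT arrays at birth. It rose 1.71-fold (difference 0.77 ± 0.09 SE, adjusted p = 0.00124). Pfkfb4, an isozyme known from testis and from hypoxic cells, was -0.03 and -0.20 on the KI arrays and 0.11 and 0.08 on the WT arrays at 1 week, against -0.45 and -0.30 on the KI arrays and -0.67 and -0.76 on the WT arrays at birth. Its rise was 1.45-fold (difference 0.53 ± 0.09 SE, adjusted p = 0.00574), and neither gene had a 1-week array within the birth range. Pfkfb1, the isozyme of liver and skeletal muscle, was -1.06 and -0.59 on the KI arrays and -0.80 and -0.71 on the WT arrays at 1 week, against -0.30 and -0.37 on the KI arrays and -0.02 and -0.24 on the WT arrays at birth. It fell 1.47-fold (difference -0.56 ± 0.13 SE, adjusted p = 0.0185), a call that was lost without KI birth replicate 1 (adjusted p = 0.0594) or WT birth replicate 1 (adjusted p = 0.0637). Pfkfb3, the inducible isozyme, was 0.43 and 0.54 on the KI arrays and 0.44 and 0.43 on the WT arrays at 1 week, against 0.15 and 0.92 on the KI arrays and -0.03 and 0.03 on the WT arrays at birth. It did not pass (difference 0.19 ± 0.17 SE, adjusted p = 0.418). Its KI birth replicate 2 stood above all other arrays, and without that array the difference was 0.39.

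Aldolase showed the largest change of any of the 35 genes. Aldoc, the brain-type aldolase, was -0.12 and 0.40 on the KI arrays and -0.35 and -0.46 on the WT arrays at 1 week, against 3.01 and 3.01 on the KI arrays and 3.18 and 2.96 on the WT arrays at birth. The ages lay far apart on every array, and the fall was 9.01-fold (difference -3.17 ± 0.13 SE, adjusted p = 5.22e-05). Aldoa, the muscle-type aldolase, was 8.67 and 8.68 on the KI arrays and 8.84 and 8.75 on the WT arrays at 1 week, against 8.68 and 8.90 on the KI arrays and 8.87 and 8.82 on the WT arrays at birth. Its ages overlapped and it did not pass (difference -0.08 ± 0.09 SE, adjusted p = 0.515). The 3 next enzymes have 1 main gene each. Tpi1, triose-phosphate isomerase, ranged from 5.75 to 6.47 at 1 week, against 6.56 to 6.79 at birth. Its difference of -0.41 ± 0.16 SE did not pass (adjusted p = 0.0911), and was -0.59 without array A. In 2 of 10 other settings it did pass, with adjusted p of 0.0491 and 0.0492. Gapdh, the dehydrogenase often used as a loading control, ranged from 7.90 to 8.11 at 1 week, against 8.13 to 8.31 at birth. Its difference of -0.19 ± 0.09 SE did not pass (adjusted p = 0.159). Of the 6 Gapdh probes this one, the brightest, fell least. The others, each well above background on all 8 arrays, had differences of -0.40 to -0.81. Gapdh passed in 0 of 10 other settings, among them the mean of all probes. Pgk1, phosphoglycerate kinase, ranged from 7.11 to 7.79 at 1 week, against 7.50 to 8.19 at birth. It did not pass (difference -0.34 ± 0.18 SE, adjusted p = 0.196). Without array A, which leaves D as the only WT array at 1 week, the Pgk1 difference was -0.51.

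Phosphoglycerate mutase and enolase were alike in that Eno1 and Pgam1 fell, while the muscle forms Eno3 and Pgam2 did not pass. Eno1, the ubiquitous enolase, was 5.41 and 5.43 on the KI arrays and 5.31 and 5.16 on the WT arrays at 1 week, against 5.90 and 6.03 on the KI arrays and 5.94 and 5.89 on the WT arrays at birth. It fell 1.52-fold (difference -0.61 ± 0.09 SE, adjusted p = 0.00294), with no overlap of the ages. Eno3, the muscle enolase, was 7.38 and 7.66 on the KI arrays and 7.75 and 7.51 on the WT arrays at 1 week, against 7.22 and 7.24 on the KI arrays and 7.32 and 7.13 on the WT arrays at birth. All its 1-week arrays were above all its birth arrays, but the difference of 0.35 ± 0.11 SE did not pass (adjusted p = 0.0554). It was 0.41 without array D. In 4 of 10 other settings it did pass, with adjusted p of 0.0205 to 0.0470. Eno2, the neuronal enolase, ranged from -2.71 to -2.19 at 1 week, against -2.23 to -1.70 at birth (difference -0.46 ± 0.16 SE, adjusted p = 0.0679). The Eno2 difference was -0.59 without array D. It passed in 6 of 10 other settings, among them the scanner-file naming (adjusted p = 0.0432). Pgam1, the brain-type mutase, ranged from 3.52 to 4.14 at 1 week, against 4.21 to 4.72 at birth, and fell 1.51-fold (difference -0.60 ± 0.17 SE, adjusted p = 0.0403). That call was lost in 6 of the 8 fits that left out 1 array, with adjusted p of 0.0782 to 0.115: those without either KI birth array, WT birth replicate 1, B, C or D. Pgam2, the muscle mutase, ranged from 7.49 to 7.67 at 1 week, against 7.23 to 7.41 at birth. It did not pass (difference 0.29 ± 0.10 SE, adjusted p = 0.0611), and the difference was 0.33 without array A. In 5 of 10 other settings it did pass, among them the scanner-file naming (adjusted p = 0.0371).

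The enzymes at the end of the pathway differed little between the ages. Pkm, pyruvate kinase of muscle and most tissues, was 6.10 and 6.17 on the KI arrays and 6.21 and 6.05 on the WT arrays at 1 week, against 6.09 and 6.25 on the KI arrays and 6.08 and 5.98 on the WT arrays at birth. The ages overlapped (difference 0.03 ± 0.09 SE, adjusted p = 0.804). Pkm splicing isoforms were not told apart. Ldha, the lactate dehydrogenase subunit typical of skeletal muscle, ranged from 7.27 to 7.81 at 1 week, against 7.73 to 7.81 at birth. Ldhb, the subunit typical of heart, ranged from 7.35 to 7.71 at 1 week, against 7.74 to 7.87 at birth. Their differences were -0.15 ± 0.13 SE (adjusted p = 0.409) for Ldha and -0.21 ± 0.11 SE (adjusted p = 0.181) for Ldhb. Array D was the lowest for both, at 7.27 for Ldha and 7.35 for Ldhb. Without array A, which leaves D as the only WT array at 1 week, the differences were -0.29 for Ldha and -0.30 for Ldhb.

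Gpd1 was the gene with the largest rise. It encodes the cytosolic glycerol-3-phosphate dehydrogenase, which links glycolysis to glycerolipid synthesis and to the glycerophosphate shuttle. It was 3.48 and 3.55 on the KI arrays and 3.40 and 3.70 on the WT arrays at 1 week, against 1.24 and 1.07 on the KI arrays and 1.38 and 1.15 on the WT arrays at birth. The 2 ages did not overlap, and the rise was 5.01-fold (difference 2.33 ± 0.11 SE, adjusted p = 7.01e-05). Its mitochondrial partner Gpd2 was 0.14 and 0.17 on the KI arrays and 0.30 and -0.36 on the WT arrays at 1 week, against 0.05 and -0.20 on the KI arrays and 0.16 and 0.09 on the WT arrays at birth. Gpd2 did not pass (difference 0.04 ± 0.16 SE, adjusted p = 0.873). Gpd1 is also abundant in fat, and the fat markers Ucp1, Adipoq, Plin1 and Cfd were well above background on arrays B, C and D and on no other array. Ucp1, the uncoupling protein of brown fat, was -6.28 on A and 0.52 to 2.40 on B to D at 1 week, against -7.28 to -6.84 at birth. Gpd1 was 3.40 on A, 3.48 to 3.70 on B to D at 1 week and 1.07 to 1.38 at birth. Ucp1, Adipoq, Plin1 and Cfd thus entered the test through 1-week arrays alone. For that reason the calls among the 7 fat markers tested (3 higher at 1 week, 0 lower, median difference 2.53) are not read as a result. Elovl3, the fat marker that was not tested, was never well above background. The summed signal of all 8 was 177 to 253 at 1 week, against 173 to 198 at birth, and its brightest member was Fabp4, at 7.21 to 7.76 at 1 week and 7.25 to 7.49 at birth. The part of fat in the rise of Gpd1 was not tested.

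In glycogen metabolism the liver-type phosphorylase and the synthase fell. Pygl, the liver-type glycogen phosphorylase, was 2.36 and 2.36 on the KI arrays and 1.88 and 1.74 on the WT arrays at 1 week, against 4.02 and 4.23 on the KI arrays and 3.86 and 3.89 on the WT arrays at birth. It fell 3.77-fold with a wide gap between the ages (difference -1.92 ± 0.09 SE, adjusted p = 7.01e-05). Pygm, the muscle phosphorylase, was 4.45 and 4.28 on the KI arrays and 4.59 and 4.32 on the WT arrays at 1 week, against 4.32 and 4.56 on the KI arrays and 4.28 and 4.34 on the WT arrays at birth. It did not pass (difference 0.03 ± 0.11 SE, adjusted p = 0.847). Pygb, the brain-type phosphorylase, was 3.65 and 2.90 on the KI arrays and 3.60 and 2.06 on the WT arrays at 1 week, against 3.50 and 3.79 on the KI arrays and 3.63 and 3.87 on the WT arrays at birth. Arrays A and B lay within the birth range and C and D below it, and the difference of -0.65 ± 0.34 SE did not pass (adjusted p = 0.192). It passed with the scanner-file naming (adjusted p = 0.0455). Without array A, which leaves D as the only WT array at 1 week, the Pygb difference was -1.03. Gys1, the muscle glycogen synthase, was 2.94 and 2.85 on the KI arrays and 2.98 and 2.55 on the WT arrays at 1 week, against 3.38 and 3.66 on the KI arrays and 3.42 and 3.35 on the WT arrays at birth. It fell 1.54-fold (difference -0.62 ± 0.13 SE, adjusted p = 0.0122), and its ages did not overlap. Ugp2, which makes the UDP-glucose that the synthase uses, ranged from 3.13 to 3.76 at 1 week, against 3.60 to 3.80 at birth. It did not pass (difference -0.20 ± 0.15 SE, adjusted p = 0.336), and its difference was -0.36 without array A.

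The other 68 listed genes of the pathway were read the same way, and 60 could be tested. Of these, 22 (36.7%) passed over age, against 29.2% of all genes. Of these 13 were lower, where 14.5% of all genes were, and 9 higher, where 14.8% were, and the median of the 60 was -0.05. For 55 of the 60, well above background on all 8 arrays, 12 were lower and 8 higher. Among the 20 tested genes of glycogen metabolism 8 (40.0%) were lower, 1 (5%) was higher and 11 did not pass, against the same 14.5% lower and 14.8% higher of all genes. Stbd1, a glycogen-binding protein, was 3.06 and 3.30 on the KI arrays and 3.22 and 2.36 on the WT arrays at 1 week, against 4.76 and 5.02 on the KI arrays and 4.71 and 4.84 on the WT arrays at birth. It fell 3.60-fold (difference -1.85 ± 0.20 SE, adjusted p = 0.000896). Glycogenin, the primer of glycogen synthesis encoded by Gyg, was 5.41 and 5.41 on the KI arrays and 5.16 and 4.86 on the WT arrays at 1 week, against 6.61 and 6.53 on the KI arrays and 6.52 and 6.30 on the WT arrays at birth. It fell 2.44-fold (difference -1.28 ± 0.11 SE, adjusted p = 0.000375). The branching enzyme Gbe1 fell 2.06-fold (difference -1.04 ± 0.16 SE) and the lysosomal glucosidase Gaa 1.36-fold (difference -0.44 ± 0.09 SE). The phosphatase-targeting subunits Ppp1r3d and Ppp1r3f fell too, as did Phka2, a subunit of phosphorylase kinase (differences -0.47, -0.55 and -0.36). The gene that rose was Phkg1, the muscle-type catalytic subunit of that kinase (difference 1.15 ± 0.21 SE, adjusted p = 0.00705). Genes for making and for breaking down glycogen were both among those that fell.

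Of the 4 glucose-responsive regulators 2 (50%) fell, against 14.5% of all genes. Txnip, an arrestin-like protein that restrains glucose uptake, was 6.06 and 6.004 on the KI arrays and 6.16 and 6.07 on the WT arrays at 1 week, against 7.17 and 6.84 on the KI arrays and 7.31 and 7.28 on the WT arrays at birth. It fell 2.11-fold (difference -1.08 ± 0.10 SE, adjusted p = 0.000597), and its relative Arrdc4 fell 1.64-fold (difference -0.72 ± 0.09 SE, adjusted p = 0.00154). Mlxip and Mlxipl did not pass. Among 13 other carriers 2 (15.4%) fell and 2 (15.4%) rose, near the 14.5% and 14.8% of all genes. The fructose carrier Slc2a5 and Slc2a12 fell, by differences of -1.23 and -0.83. Slc2a6 and Slc2a10 rose, by 1.104 and 0.53, with Slc2a6 well above background on 3 of 4 1-week arrays and on 2 of 4 birth arrays. Fructose-1,6-bisphosphatase runs against phosphofructokinase. Its muscle form Fbp2 was -0.54 and -1.09 on the KI arrays and -0.18 and -1.0 on the WT arrays at 1 week, against -2.87 and -2.29 on the KI arrays and -2.66 and -2.43 on the WT arrays at birth. It rose 3.63-fold (difference 1.86 ± 0.24 SE, adjusted p = 0.00177). The liver form Fbp1 was well above background on 0 of 4 arrays at 1 week and on 4 of 4 at birth, and since it entered the test through the birth arrays alone its call, 1 of the 13 lower, is not read as a result. Bpgm, Tigar, Ldhd, Pgm2l1 and Rpia rose, by differences of 0.63, 0.65, 0.98, 0.41 and 0.40. Of the 7 tested genes of the pentose phosphate pathway, Rpia alone passed (14.3%), where 14.8% of all genes were higher.

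Because 2 probes differ in brightness, isozymes were compared by how their difference changed between the ages, array by array. In 17 pairs of isozymes or opposed enzymes, 14 (82.4%) reached p = 0.0286, the smallest that an exact two-sided permutation test of 4 arrays against 4 can give, unadjusted for the 17 pairs. That p is given where the ages do not overlap, as they did not for 36.3% of all pairs of the 15744 genes, and the pairs share genes and were chosen with the age differences known. Aldoa gained 3.09 on Aldoc, Slc2a4 gained 2.67 on Slc2a1, Gpd1 gained 2.29 on Gpd2 and Pygm gained 1.95 on Pygl. Slc16a1 gained 1.46 on Slc16a3, Hk2 gained 1.22 on Hk1 and Pfkm gained 1.18 on Pfkp. For enolase and the mutase, Eno3 gained 0.95 on Eno1 and 0.81 on Eno2, and Pgam2 gained 0.89 on Pgam1. Pfkm gained 0.58 on Pfkl, and Slc2a3 gained 0.85 on Slc2a1, as both of those carriers fell. In the 2 pairs that ran the other way, Gys1 lost 0.65 on Pygm and Pfkfb1 lost 1.09 on Pfkfb4. The pairs that did not reach that value were Pygm and Pygb (0.68, exact p = 0.0571), Pfkfb2 and Pfkfb3 (0.58, exact p = 0.143) and Ldhb and Ldha (-0.06, exact p = 0.286). Pfkm, Pfkl, Eno3 and Eno2 did not pass singly, but the limma test of single genes was adjusted over all genes and the pair test was not. The 2 outcomes thus cannot be set against each other. Unadjusted limma p was 0.0170 for Eno3, 0.0230 for Eno2, 0.134 for Pfkm and 0.214 for Pfkl.

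**Figure D3:**
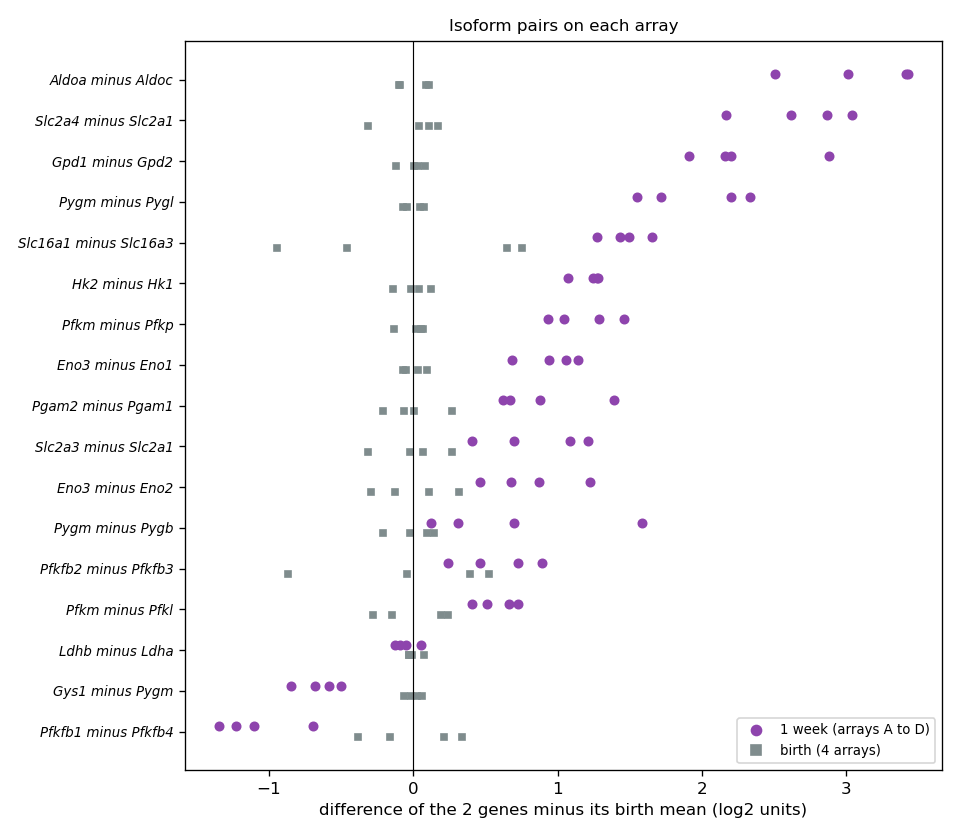
Difference of the log2 levels of 2 genes on each array, set to 0 at the birth mean of that pair, with 1-week arrays as purple circles above birth arrays as grey squares. The 1-week arrays lie clear of the birth arrays in 14 of 17 pairs, against 36.3% of all pairs of genes tested, and Aldoa minus Aldoc shifted most, by 3.09.

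The change with age was then taken within each genotype. Within KI 11 genes passed, against 10.6% of all genes. Of these 4 were higher and 7 lower, where 5.86% and 4.74% of all genes were. Within WT 12 passed, against 19.0% of all genes. Of these 4 were higher and 8 lower, where 10% and 8.97% of all genes were. The 10 genes that passed in both were Hk1, Pfkfb2, Aldoc, Eno1, Slc2a1, Slc2a3, Slc2a4, Slc16a3, Gpd1 and Pygl. Hk2 passed in KI, and Pfkp and Pfkfb4 in WT, but no gene of the 35 passed the test of the difference between genotypes in the change with age, which 0.00635% of all genes did. With the value-table naming the smallest unadjusted p was that of Pfkfb4, with a change of 0.26 in KI and 0.81 in WT (difference -0.56 ± 0.18 SE, unadjusted p = 0.0182, adjusted p = 0.888). With the scanner-file naming no gene of the 35 passed that test either, and the smallest unadjusted p was that of Pygb (difference -1.03 ± 0.39 SE, unadjusted p = 0.0330, adjusted p = 0.781), with Pfkfb4 at -0.44 ± 0.20 SE (unadjusted p = 0.0673, adjusted p = 0.806). With the scanner-file naming 15 genes passed in KI, against 15.2% of all genes, and 10 in WT, against 12.7%. Aldoc, Eno1, Slc2a1, Slc2a3, Slc2a4, Gpd1 and Pygl passed in both genotypes under both namings. These counts moved when single arrays were left out, which leaves 1 array in a group, and so did the counts over all genes.

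KI and WT ventricles did not differ in any of the 35 genes past the threshold at either age. At 1 week 0 of 35 passed, with 3 at an unadjusted p under 0.05, and 0.0508% of all genes passed. At birth 0 passed, with 2 at an unadjusted p under 0.05, and 0.0381% of all genes passed. With the scanner-file naming 0 passed at 1 week and 0 at birth, with 2 at an unadjusted p under 0.05 at 1 week and 0 at birth. The 95% interval of a KI minus WT difference had a median half-width of 0.43 and ranged from 0.29 to 1.14. That interval is unadjusted, and with 2 arrays a group larger differences, among them those of Pygl and Aldoc at 1 week, did not pass after adjustment either. The KI and WT arrays did not overlap for 9 of 35 genes (25.7%) at 1 week, against 37.9% of all genes, and with the scanner-file naming for 14 (40.0%), against 40.1%. At birth they did not overlap for 14 (40.0%), against 31.9%. The median difference of the 35 genes was 0.11 at 1 week with the value-table naming and -0.10 with the scanner-file naming, and it was -0.04 at birth.

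The gene with the smallest p at 1 week was Pygl, at 2.36 and 2.36 in KI, against 1.88 and 1.74 in WT. The 2 genotypes did not overlap (difference 0.55 ± 0.13 SE, adjusted p = 0.452), but with the scanner-file naming the difference was -0.07 ± 0.24 SE. Aldoc was -0.12 and 0.40 in KI, against -0.35 and -0.46 in WT (difference 0.54 ± 0.19 SE, adjusted p = 0.686), and 0.21 ± 0.27 SE with the scanner-file naming. Pfkfb2 was lower in KI at both ages without passing. At 1 week it was 0.59 and 0.48 in KI, against 1.02 and 0.84 in WT (difference -0.40 ± 0.13 SE, adjusted p = 0.640; -0.14 ± 0.19 SE with the scanner-file naming). At birth it was -0.21 and -0.26 in KI, against 0.18 and 0.11 in WT (difference -0.38 ± 0.13 SE, adjusted p = 0.832). With the mean of the 3 Pfkfb2 probes, of which 1 was well above background on 6 of 8 arrays, the birth difference was 0.01. At birth Pfkfb4 was -0.45 and -0.30 in KI, against -0.67 and -0.76 in WT (difference 0.34 ± 0.13 SE, adjusted p = 0.939). Under the scanner-file naming the smallest p at 1 week was that of Pygb, at 2.90 and 2.06 on the KI arrays C and D, against 3.60 and 3.65 on the WT arrays A and B (difference -1.14 ± 0.27 SE, adjusted p = 0.414). With the value-table naming that difference was 0.45 ± 0.48 SE. Pfkm likewise was -0.57 ± 0.18 SE with the scanner-file naming (adjusted p = 0.449) and 0.19 ± 0.27 SE with the value-table naming. For the carriers at 1 week, the KI minus WT difference was 0.46 ± 0.27 SE in Slc2a1 (95% interval -0.17 to 1.09) and -0.10 ± 0.14 SE in Slc2a4 (95% interval -0.45 to 0.24). With the scanner-file naming these were 0.12 ± 0.32 SE in Slc2a1 and -0.02 ± 0.15 SE in Slc2a4. The largest carrier difference was 0.56 ± 0.24 SE in Slc16a1 (95% interval -0.02 to 1.14, adjusted p = 0.690), which was -0.10 ± 0.32 SE with the scanner-file naming.

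**Figure D4:**
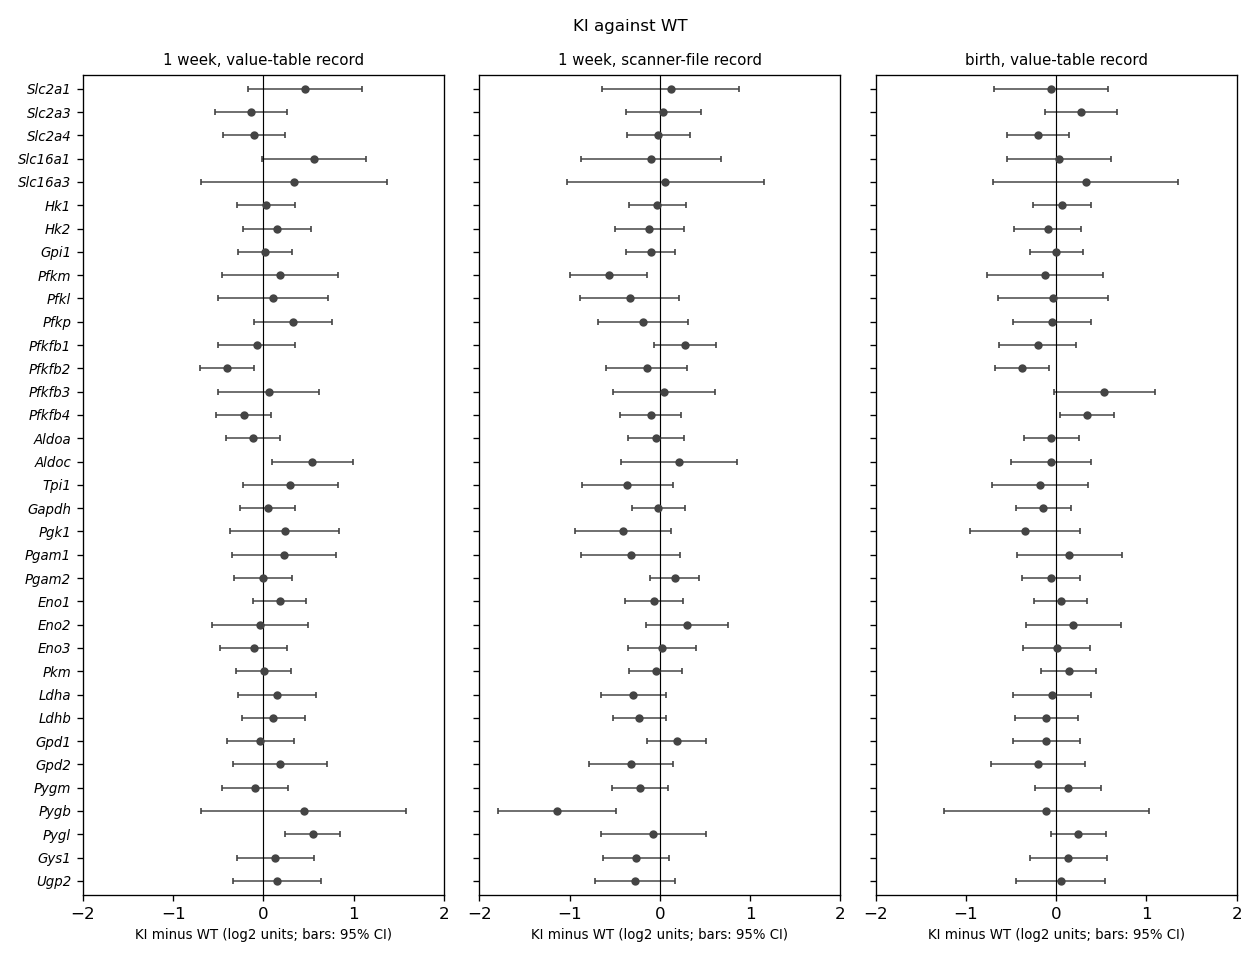
KI minus WT difference of the 35 genes in log2 units with its 95% interval, at 1 week under the value-table naming, at 1 week under the scanner-file naming, and at birth. No gene passed the threshold in any panel, and Pygb and Pfkm change side between the first 2 panels.

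The 35 genes were covered by 62 probes. Of the 27 probes that were not the brightest of their gene, 19 were well above background on all arrays, and 17 of these had the same sign of age difference as the brightest probe, the exceptions being in Pkm and Pygm. For the genes that passed over age, 7 of 7 such probes had the same sign. Probes of 1 gene did not move alike on array D: in the 13 genes with several such probes, 15 of 19 other probes lay further below the mean of A to C on D than the brightest probe did. For Gapdh, the brightest probe was -0.15 from that mean on D and another was -1.51. For Pkm these values were -0.11 and -1.74.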

How the data were processed

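RNA of pooled mouse ventricles was measured on 8 single-colour arrays on 1 slide. Per the file headers, the authors' Feature Extraction 11.0.1.1 (9.1 per the submitters' processing notes; build mm9) made the processed intensity of each spot, with background subtracted and detrended within the array and no normalization between arrays. The deposited value table holds the same intensity as a mean over a probe's spots; its columns were matched to scanner files at a relative tolerance of 0.0001, and 3 of the 4 1-week columns equalled the file of another sample. The raw intensities and the flags (other values, coded 0 and 1 per the file headers) of the deposited scanner files served alternatives and filters. Control spots were left out, as were 15 probes with all their spots flagged as outliers on at least 1 array. A flagged spot of a probe with unflagged spots stayed in the mean of that probe.

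Here, log2 processed intensity minus the 75th percentile of non-control probes of each array was used, with probes named through RefSeq accessions and the brightest probe taken for each gene. Genes well above background on both arrays of any group were tested (15744 genes). limma 3.58.1 in R 4.3.3 fitted 4 group means (4 residual degrees of freedom), with Benjamini-Hochberg adjustment over all genes for each of 6 comparisons and a threshold of 0.05. The fit was tested on simulated data. Isozyme pairs had exact two-sided permutation tests (scipy 1.17.1). Alternatives were the scanner-file naming, normexp with an offset of 50, quantile normalization, median scaling, other filters, the mean of all probes, a replicate block, an intensity trend, fits of fewer arrays or of ages alone, and each array left out. The members and gene lists were chosen with earlier results of these data known. Named were all 35 members and the listed pathway genes past the threshold, except 1 that is not reported here. A deletion of 1 residue cannot be read from the level of the Tnnt2 probe, so the genotypes were not checked. Precision is limited by 2 arrays a group.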

Additional observations from a re-analysis of the deposited data

How the results depend on the processing

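Of the 17 genes that passed over age, 13 did so under all 18 alternatives, and Hk1, Gpi1, Pfkfb1 and Pgam1 did not (Hk1 with the mean of all probes, Pfkfb1 also with normexp at an adjusted p of 0.0575, Pgam1 also with no filter at 0.0780). Leaving out 1 array gave 14 to 24 genes, and 2916 to 5564 over all genes; the other settings gave 16 to 20. The cause of the changes below was not tested. Median scaling moved the median of all genes by -0.16 for age in WT and by 0.15 for the difference between genotypes in the change with age, and by under 0.1 elsewhere. It put the share of higher genes among all age calls at 36.3% in WT (52.7% otherwise) and at 40.3% for the mean (50.5% otherwise).

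Counts over all genes moved as follows. KI against WT at 1 week gave 8, against 1 with the scanner-file naming, 4 with normexp, 3 with no filter, 4 with the filter on all 8 arrays, 3 with the mean of all probes, 0 with only the arrays compared, and 2 to 22 with 1 array left out. KI against WT at birth gave 6, against 0 with the scanner-file naming, no filter, the replicate block or only the arrays compared, 3 with the filter on all 8 arrays, and 0 to 7 with 1 array left out. The difference between genotypes in the change with age gave 1, against 0 with the scanner-file naming, quantile normalization, no filter or the replicate block, 2 with median scaling or the filter on all 8 arrays, and 0 to 4 with 1 array left out. Age in WT gave 2990, against 1870 with no filter, 1448 with only the arrays compared, and 1192 to 4181 with 1 array left out. Age in KI gave 1669, against 1092 with no filter and 560 to 2021 with 1 array left out. Of the 35 genes, 7 passed for age in KI with no filter, 4 to 12 with 1 array left out, and 5 to 21 for age in WT with 1 array left out. No label says that replicate numbers pair the samples. Correlations of same-numbered deviations were -0.14 to 0.29, which cannot decide if they do. With the replicate block 18 of the 35 genes passed for the mean, 9 in KI and 11 in WT, against 4628, 1575 and 2902 over all genes.

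For pairs, Pfkfb2 over Pfkfb3 reached the smallest exact p with the mean of all probes (0.94), as did Pygm over Pygb with normexp (0.73), and Eno3 over Eno2 did not with normexp (0.65). No value that changed sign was past the threshold. With the scanner-file naming these were, at 1 week, Pfkm (-0.57), Pygb (-1.14) and Pygl (-0.071), and Pygb in the difference between genotypes (-1.03). With the mean of all probes they were Pfkfb2 at birth (0.012) and, over age, Pfkfb3 (-0.18), Pkm (-0.11) and Pygm (-0.053). Over age with median scaling they were Pkm (-0.051), Gpd2 (-0.048) and Pygm (-0.054). With 1 array left out, the values at 1 week ranged from -0.25 to 0.63 for Pfkm and from -0.32 to 1.22 for Pygb, both lowest without D. In the difference between genotypes they ranged from -0.10 to 0.37 for Pfkfb1 and from -0.21 to 1.33 for Pygb, and for age in KI from -0.74 to 0.0034 for Pygb. Over age they ranged from -0.00028 to 0.39 for Pfkfb3, from -0.0061 to 0.075 for Pkm, from -0.13 to 0.20 for Gpd2 and from -0.035 to 0.099 for Pygm.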
